A study of Caenorhabditis elegans with 12 samples.

Results

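The 41 genes described here encode pre-mRNA splicing factors of Caenorhabditis elegans. They were taken from the 20182 genes of the deposited count table by symbol, as every gene named rsp, snr, prp, lsm, uaf, sfa or sftb followed by a number. They comprise 8 SR protein genes (rsp), 7 Sm genes (snr), 7 LSm genes (lsm), 3 genes for recognition of the branch point and 3' splice site (sfa and uaf), 3 genes of SF3b subunits (sftb) and 13 genes named prp. All 41 passed the filter on low counts. RNA was recovered by immunoprecipitation (IP) from whole young adult worms of 3 transgenic strains and sequenced in 12 libraries. Each strain expressed 1 of the Y-box proteins CEY-1, CEY-2 and CEY-4 from a transgene with a single FLAG tag. In the strains here called CEY1 (rrrSi300) and CEY2 (rrrSi233) the tagged gene had its own promoter, while in CEY4 (rrrSi307) the dpy-30 promoter drove it. The transgenes shared their other parts: the 3' UTR of the tagged gene, an operon linker, a PEST sequence with GFP and histone H2B, the tbb-2 3' UTR and the marker unc-119(+), all on chromosome I. From each strain 2 FLAG IPs and 2 MYC IPs were sequenced, the MYC IPs serving as controls. Whether the replicates are separate worm cultures is not stated, and p-values therefore measure the spread between these libraries only, which may be technical.

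Splicing removes introns from pre-mRNA on the spliceosome, which assembles from small nuclear ribonucleoproteins (snRNPs). Each snRNP of the Sm class is built on a ring of Sm proteins, and U6 carries a ring of LSm proteins, a variant of which takes part in mRNA decapping in the cytoplasm. SF1, U2AF and SF3b recognise the branch point and the 3' splice site, SR proteins bind exons and regulate splice site choice, and many PRP proteins belong to the snRNPs or drive the catalytic steps. Y-box proteins bind mRNAs in the cytoplasm, so the libraries measure the mRNAs of these factors, not splicing.

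Total counts ran from 22915137 to 33529549 in the FLAG libraries and from 3353523 to 12802412 in the MYC libraries, so depth differed with the antibody. Levels are given in CPM, the counts relative to the library total, after scaling by trimmed means (TMM), and log2 fold changes are FLAG over MYC on that scale. The labels name no spike-in RNA that would fix the absolute amount. With total-count scaling the median log2 fold change of all 15194 tested genes moved by −1.49 in CEY1, −1.71 in CEY2 and −1.41 in CEY4 (by −0.33 in CEY2 with median-of-ratios scaling), and a small positive value then becomes negative. Calls of a lower level kept their sign on both scales, and where a positive call named below changes sign the total-count value is given beside it. All tissue marker lists were detected, with no marker at 0 in both libraries of a group. In whole worms, fewer cells of a type and less RNA per cell cannot be told apart.

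The splicing factor mRNAs were most often higher in the FLAG IP with CEY-2, on either scale. In CEY2, 32 of 41 were higher in the FLAG than in the MYC IP and 2 were lower, where 34.9% and 34.1% of all tested genes were called in these directions. Their median log2 fold change was 1.48, against −0.41 over all tested genes. In CEY1, 18 were higher and 19 lower (32.3% and 34.4% of all genes), with a median of −0.16 against −0.26. In CEY4, 20 were higher and 15 lower (31.5% and 37% of all genes), with a median of −0.08 against −0.35. With total-count scaling the counts were 5 higher and 35 lower in CEY1, 11 and 22 in CEY2, and 2 and 34 in CEY4, where 10.8%, 13.2% and 9.25% of all genes were higher and 71.4%, 71.7% and 79.7% lower. The median of the 41 genes in CEY2 was then −0.25, against −2.12 over all genes, so its sign depends on the scale. Among germline markers, 8 of 8 genes were higher in CEY2 (median 2.63), and 7 in CEY1 and 6 in CEY4 with 1 lower in each (medians 1.43 and 1.24), and with total-count scaling 6, 4 and 3 were higher and 1, 4 and 5 lower. In CEY2, of the other tissue lists, 0 of 5 body wall muscle, 2 of 6 intestine, 0 of 5 hypodermis, 1 of 6 neuron and 1 of 5 sperm genes were higher, and 3, 4, 4, 3 and 4 lower. In CEY1 the counts higher in the same lists were 4, 4, 3, 2 and 1, and in CEY4 5, 3, 1, 1 and 1, with 0, 2, 2, 1 and 3 lower in CEY1 and 0, 2, 3, 2 and 2 lower in CEY4. With total-count scaling 0 genes of these 5 lists were higher in CEY2. The summed level of the 8 germline genes was 12196 to 12420 CPM in CEY1 FLAG, 13075.5 to 13425 in CEY2 FLAG and 10111 to 10150 in CEY4 FLAG libraries, against 3424 to 3680, 2078 to 2158 and 3792 to 3829 in the MYC libraries. The part of germline RNA in the members' values was not tested.

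The log2 fold changes within the 41 genes differed by family. In CEY1 the medians were 1.16 for SR proteins, 1.27 for SF3b subunits and 0.81 for the prp genes, but −1.15 for the Sm genes and −0.80 for the LSm genes. In CEY4 they were 0.38, 0.61 and 0.67 against −0.86 and −0.60, and in CEY2 1.88, 1.68 and 1.90 against 0.33 and 0.30, the last pair turning to −0.0062 and −0.039 with median-of-ratios scaling and to −1.40 and −1.43 with total-count scaling. Total-count scaling lowers all families alike, to medians in CEY1 of −0.33, −0.22 and −0.68 against −2.64 and −2.29, so the order between the families does not depend on the scale. The 3 genes of branch point and 3' splice site recognition lay between, with medians of 0.11, 1.08 and −0.09 in CEY1, CEY2 and CEY4. Of the 3 SF3b genes, 2 were higher and 1 lower in CEY1, and likewise in CEY4. The medians are descriptions of the families and were not tested against each other.

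**Figure D1:**
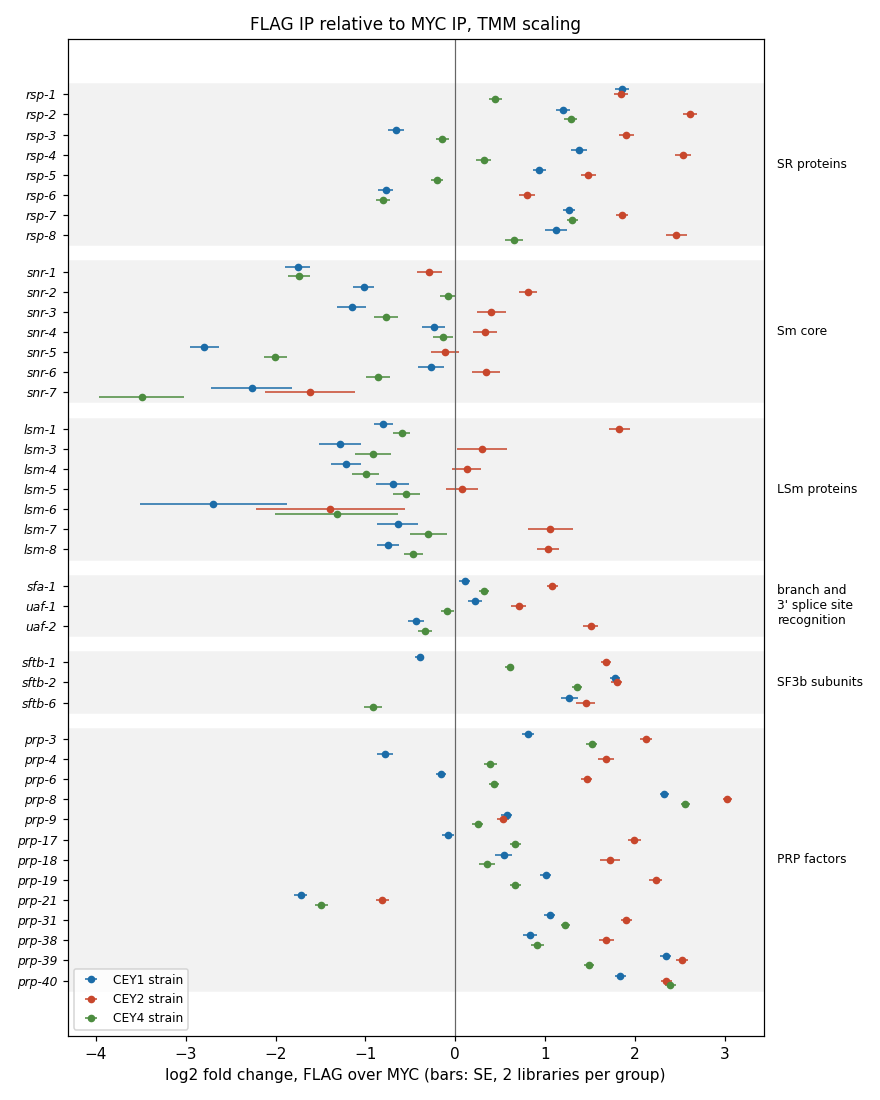
Log2 fold change of FLAG over MYC (x axis, TMM scale, bars are SE) for each of the 41 splicing factor genes (y axis, grouped by family) in the CEY1, CEY2 and CEY4 strains, with 2 libraries per group. In CEY1 and CEY4 no Sm or LSm gene lies above 0, prp-21 lies below 0 in each strain, and with total-count scaling the points move left by 1.49, 1.71 and 1.41, so that many positive values become negative.

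The prp genes held the highest values. prp-8 encodes the core protein of the U5 snRNP at the catalytic centre of the spliceosome. Its level was 4614 and 4409 CPM in the CEY1 FLAG libraries and 931 and 868 in their controls, 5948 and 6030.4 against 739 and 729 in CEY2, and 5736 and 5890.4 against 998 and 971 in CEY4. Every FLAG library was far above every MYC library. The log2 fold changes were 2.33 ± 0.05 (SE, adjusted p = 4.41e-34), 3.03 ± 0.05 (SE, adjusted p = 2.99e-37) and 2.56 ± 0.05 (SE, adjusted p = 3.54e-35) in CEY1, CEY2 and CEY4, and 0.84, 1.30 and 1.15 with total-count scaling.

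prp-39 and prp-40, whose yeast homologs belong to the U1 snRNP, were also higher in every strain. prp-39 stood at 542 and 535 CPM in CEY1 FLAG and 108 and 105 in CEY1 MYC libraries (2.34 ± 0.06 SE, adjusted p = 3.39e-31). Its values were 2.52 ± 0.07 in CEY2 and 1.49 ± 0.06 in CEY4, the last being 0.08, which missed the threshold, with total-count scaling. For prp-40 the order of the strains differed. Its level was 819.8 and 816 CPM in CEY4 FLAG against 150.4 and 161 in CEY4 MYC libraries (2.40 ± 0.06 SE, adjusted p = 3.51e-32), with 1.84 ± 0.06 in CEY1 and 2.35 ± 0.06 in CEY2. prp-8 and prp-40 were the members called higher in all 3 strains on both scales.

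Among the prp genes of the U4/U6 and U5 particles, prp-3 and prp-31 were higher in each strain, while prp-4 and prp-6 turned lower in CEY1. prp-3 stood at 441 and 440.3 CPM in CEY4 FLAG and 159.9 and 148 in CEY4 MYC libraries (1.52 ± 0.06 SE, adjusted p = 5.64e-25; 0.10, not called, with total-count scaling), with 0.81 ± 0.06 in CEY1 (−0.68 with total-count scaling) and 2.12 ± 0.07 in CEY2. prp-31 had 1.05 ± 0.06, 1.90 ± 0.06 and 1.23 ± 0.05, which became −0.44, 0.17 and −0.19. prp-4, which encodes a U4/U6 protein, stood at 42.8 and 45.9 CPM in CEY1 FLAG against 77.5 and 74.8 in CEY1 MYC libraries (−0.78 ± 0.09 SE, adjusted p = 1.63e-10). In CEY2 the order was the opposite, at 133 and 115 against 40.3 and 37.2 CPM (1.67 ± 0.09 SE, adjusted p = 1.43e-20, but −0.06 with total-count scaling), and in CEY4 its value was 0.39 ± 0.07 (−1.02). prp-6, a U5 protein that bridges to U4/U6, had −0.16 ± 0.06 (SE, adjusted p = 0.0218) in CEY1, which missed the threshold without CEY1 FLAG replicate 2 (−0.13, adjusted p = 0.135) or CEY1 MYC replicate 1 (−0.13, adjusted p = 0.0708). It had 1.46 ± 0.06 in CEY2 and 0.44 ± 0.06 in CEY4, or −0.27 and −0.98 with total-count scaling.

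Genes of the later steps had smaller values in CEY1 and CEY4 than in CEY2. prp-19, the ubiquitin ligase of the complex that activates the spliceosome, had 1.01 ± 0.06, 2.23 ± 0.07 and 0.67 ± 0.06 in CEY1, CEY2 and CEY4, of which the first and last turned to −0.48 and −0.74 with total-count scaling. prp-17, a factor of the catalytic steps, was higher in CEY2 (1.99 ± 0.07, and 0.26 with total-count scaling) and CEY4 (0.67 ± 0.06, but −0.74), and in CEY1 its value was −0.08 ± 0.07 (SE, adjusted p = 0.311). prp-18, which acts at the second step, had 0.54 ± 0.10, 1.73 ± 0.11 and 0.36 ± 0.09, and prp-38, a factor of tri-snRNP activation, 0.83 ± 0.08, 1.68 ± 0.08 and 0.92 ± 0.07. All 6 of these values were called. With total-count scaling they became −0.95, −0.004 and −1.06 for prp-18 and −0.66, −0.05 and −0.50 for prp-38.

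prp-21 and prp-9, which encode SF3a subunits, stood apart from the rest. prp-21 was the prp gene called lower in every strain, and the scale did not change that. Its level was 348 and 343 CPM in CEY1 FLAG against 1024 and 1254 in CEY1 MYC libraries (−1.72 ± 0.07 SE, adjusted p = 5.62e-24). In CEY2 it was 266 and 274 against 431 and 519 CPM (−0.81 ± 0.07 SE, adjusted p = 3.34e-13), and in CEY4 288 and 279 against 752 and 844 CPM (−1.49 ± 0.07 SE, adjusted p = 6.26e-22). The FLAG and MYC libraries did not overlap in any strain, and the controls varied more between strains than the FLAG libraries did. The RefSeq table places the noncoding RNA gene W07E6.7 within the span of prp-21, and whether its reads were counted for prp-21 was not tested. prp-9 was slightly higher in each strain (0.57 ± 0.06, 0.53 ± 0.07 and 0.25 ± 0.06), and lower with total-count scaling (−0.91, −1.20 and −1.17). Its level was lowest in CEY2 with both antibodies, at 215 and 197 CPM in FLAG and 136 and 149 in MYC libraries, against 629 and 689 and 461 and 425 in CEY1 and 519.7 and 515 and 416 and 454 in CEY4.

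The share of each gene among the counts of the 41 genes does not depend on library scaling. prp-8 took 41.5% to 46.8% of these counts in the 6 FLAG libraries and 14.6% to 22.2% in the 6 MYC libraries. prp-21 went the other way, with 2.00% to 3.23% in FLAG and 13% to 21.1% in MYC libraries. The 14 Sm and LSm genes together held 1.52% to 2.12% in FLAG and 4.85% to 6.14% in MYC libraries. For none of these 3 did the ranges of the antibodies overlap. The shares are parts of the same total, so a larger share of prp-8 lowers those of the other genes, and the 3 results are not independent. In CEY2, 6 of the 14 Sm and LSm genes were called higher and 1 lower on the TMM scale (34.9% and 34.1% of all genes), though their share was lower in FLAG. The 41 genes together made up 0.594% and 0.593% of all counts in the CEY1 FLAG libraries, 0.85% and 0.854% in CEY2 FLAG and 0.708% and 0.712% in CEY4 FLAG. In the controls they made up 0.898% and 0.939% (CEY1), 0.700% and 0.724% (CEY2) and 0.833% and 0.855% (CEY4), so on total counts the FLAG share was above its control in CEY2 and below it in CEY1 and CEY4.

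**Figure D2:**
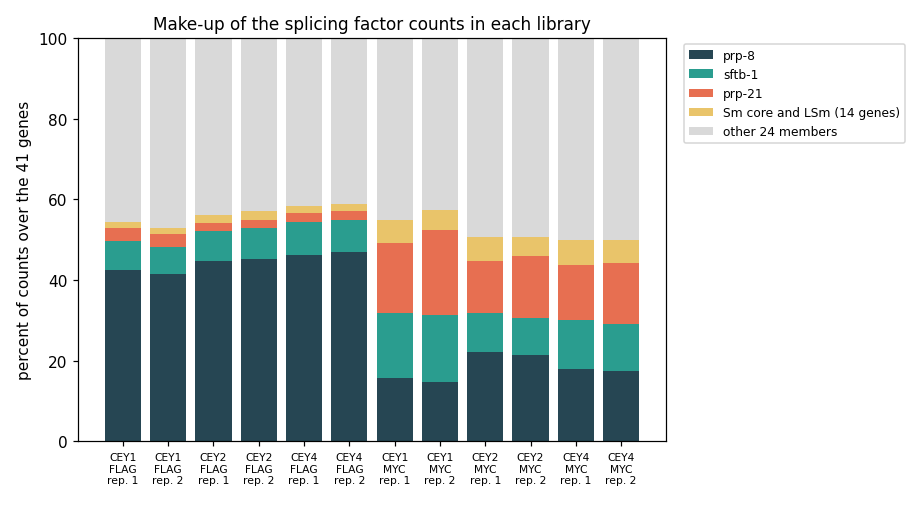
Percent of the counts over the 41 splicing factor genes (y axis) taken by prp-8, sftb-1, prp-21, the 14 Sm and LSm genes and the other 24 genes in each of the 12 libraries (x axis). In every FLAG library prp-8 takes 41.5% or more, and in every MYC library 22.2% or less. The share of prp-21 is 2.00% to 3.23% in FLAG and 13% to 21.1% in MYC libraries.

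The values of sftb-1 and sftb-6 differed between the strains. sftb-1, the homolog of SF3B1, which contacts the branch point, stood at 758 and 719 CPM in CEY1 FLAG against 953 and 991 in CEY1 MYC libraries (−0.40 ± 0.05 SE, adjusted p = 5.74e-09). In CEY2 it was 1000.2 and 1021 against 318 and 313 CPM (1.68 ± 0.05 SE, adjusted p = 2.79e-28, but −0.05 with total-count scaling), and in CEY4 1005 and 1017 against 666 and 662 CPM (0.61 ± 0.05 SE, adjusted p = 5.1e-14, but −0.81). On the TMM scale the FLAG levels of CEY2 and CEY4 were alike and the controls were not, CEY2 MYC being the lowest group. With total-count scaling the CEY1 FLAG libraries were the lowest, at 415 and 401 CPM. sftb-6, the homolog of the branch-point protein p14, fell in CEY4, where it stood at 15.4 and 15.3 CPM in FLAG and 28.6 and 29.2 in MYC libraries (−0.91 ± 0.10 SE, adjusted p = 1.17e-10). It stood at 60.4 and 61.1 against 25.4 and 24.9 CPM in CEY1 (1.27 ± 0.10 SE, adjusted p = 5.75e-15) and 54.5 and 54 against 20.8 and 18.8 CPM in CEY2 (1.45 ± 0.11 SE, adjusted p = 5.35e-16), values that became −0.22 and −0.28 with total-count scaling. The CEY4 FLAG libraries were the lowest of the 12. sftb-2, the homolog of SF3B2, was higher in all strains (1.78 ± 0.06, 1.80 ± 0.06 and 1.36 ± 0.06), with 0.29, 0.07 and −0.06 on the total-count scale, of which the last 2 were not called.

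The genes for branch point and 3' splice site recognition had their highest values in CEY2. uaf-2, which encodes the small U2AF subunit, stood at 138 and 132 CPM in CEY2 FLAG against 44.0 and 51.3 in CEY2 MYC libraries (1.51 ± 0.08 SE, adjusted p = 9.17e-20, but −0.22 with total-count scaling), and was lower in CEY1 (−0.43 ± 0.09 SE, adjusted p = 4.7e-05) and CEY4 (−0.33 ± 0.08 SE, adjusted p = 0.000283). uaf-1, the large subunit, had 0.22 ± 0.08 (SE, adjusted p = 0.016), 0.71 ± 0.08 (SE, adjusted p = 7.57e-10) and −0.09 ± 0.07 (SE, adjusted p = 0.298) in CEY1, CEY2 and CEY4. In CEY1 the call was lost without CEY1 FLAG replicate 2 (0.14, adjusted p = 0.216) or CEY1 MYC replicate 2 (0.16, adjusted p = 0.146). sfa-1, the homolog of the branch-point binding protein SF1, had 0.11 ± 0.06 (SE, adjusted p = 0.115), 1.08 ± 0.06 (SE, adjusted p = 2.63e-19) and 0.32 ± 0.06 (SE, adjusted p = 6.11e-06), and passed in CEY1 without CEY1 MYC replicate 1 (0.17, adjusted p = 0.0167). With total-count scaling the values of uaf-1 and sfa-1 were negative in every strain, at −1.27, −1.02 and −1.50 for uaf-1 and −1.38, −0.65 and −1.10 for sfa-1.

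All 8 SR protein genes were higher with CEY-2, against 6 higher and 2 lower in CEY1 and 5 higher and 2 lower in CEY4. Of all tested genes 34.9% were higher in CEY2, 32.3% higher and 34.4% lower in CEY1, and 31.5% and 37% in CEY4. With total-count scaling the counts were 4 higher and 2 lower in CEY2, 1 and 6 in CEY1, and 0 and 6 in CEY4. The shares of all genes were then 13.2% and 71.7%, 10.8% and 71.4%, and 9.25% and 79.7%. rsp-2 stood at 365 and 349 CPM in CEY2 FLAG against 60.2 and 56.2 in CEY2 MYC libraries (2.62 ± 0.08 SE, adjusted p = 3.31e-29), with 1.20 ± 0.08 in CEY1 and 1.28 ± 0.07 in CEY4 (both negative with total-count scaling, at −0.29 and −0.13). rsp-4, the homolog of SC35, stood at 223 and 228 against 43.1 and 34.3 CPM in CEY2 (2.54 ± 0.09 SE, adjusted p = 5.46e-27), with 1.38 ± 0.09 in CEY1 (−0.11 with total-count scaling) and 0.32 ± 0.08 in CEY4 (−1.10). In both genes the CEY2 FLAG libraries were the highest of the 12 on either scale. The lowest FLAG library was above every control on the TMM scale, but below every control with total-count scaling. On that scale rsp-2 stood at 80.3 and 88.0 CPM in CEY1 FLAG, against 95.7 or more in the controls. For rsp-4 it was 34.2 and 32.5 CPM in CEY4 FLAG, against 60.8 or more.

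rsp-3, the homolog of the SR protein SF2/ASF, differed between the FLAG groups more than between the controls. Its level was 34.6 and 31.3 CPM in CEY1 FLAG, 184 and 191 in CEY2 FLAG and 56.3 and 61.0 in CEY4 FLAG libraries, while the controls stood at 51.9 and 52.6, 49.9 and 50.3 and 67.6 and 62.0 CPM. Its log2 fold changes were −0.66 ± 0.09 (SE, adjusted p = 2.02e-08), 1.90 ± 0.08 (SE, adjusted p = 5.08e-24) and −0.14 ± 0.07 (SE, adjusted p = 0.0859), and in CEY2 0.17 with total-count scaling. The CEY4 value passed without CEY4 MYC replicate 2 (−0.19, adjusted p = 0.0482). rsp-6, the homolog of SRp20, was lower in CEY1 (−0.77 ± 0.09) and CEY4 (−0.80 ± 0.08) and higher in CEY2 (0.80 ± 0.09, but −0.93 with total-count scaling).

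The SR gene rsp-1 was higher in every strain. It stood at 161 and 167 CPM in CEY1 FLAG against 45.9 and 44.7 in CEY1 MYC libraries (1.86 ± 0.08 SE, adjusted p = 1.29e-23, and 0.36 with total-count scaling). It had 1.84 ± 0.08 in CEY2 (0.12, not called, with total-count scaling) and 0.45 ± 0.07 in CEY4 (−0.97), where the FLAG libraries held 81.5 and 78.5 CPM. rsp-5 had 0.93 ± 0.07, 1.48 ± 0.08 and −0.20 ± 0.07 (SE, adjusted p = 0.00994). The positive values became −0.56 and −0.25 with total-count scaling, and the last missed the threshold without CEY4 FLAG replicate 1 (−0.18, adjusted p = 0.101) or CEY4 MYC replicate 2 (−0.18, adjusted p = 0.0522). rsp-7 had 1.27 ± 0.07, 1.86 ± 0.07 and 1.30 ± 0.06, and rsp-8, a homolog of the Tra2 proteins, 1.12 ± 0.12, 2.46 ± 0.12 and 0.65 ± 0.10. In CEY1 and CEY4 these 2 genes turned negative with total-count scaling (−0.23 and −0.11 for rsp-7, −0.37 and −0.76 for rsp-8).

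The Sm genes, which encode the ring proteins of the snRNPs, were lower or not called in CEY1 and CEY4. In each of these strains 5 of 7 were lower and 0 higher, where 34.4% (CEY1) and 37% (CEY4) of all genes were lower. The shares of all genes called higher were 32.3% and 31.5%. With total-count scaling 7 of 7 were lower, as were 71.4% (CEY1) and 79.7% (CEY4) of all genes. snr-5, which encodes SmF, stood at 4.73 and 4.23 CPM in CEY1 FLAG against 35.6 and 27.5 in CEY1 MYC libraries (−2.79 ± 0.16 SE, adjusted p = 3.52e-19). In CEY4 it was 9.96 and 8.81 against 38.0 and 37.4 CPM (−2.0 ± 0.13 SE, adjusted p = 9.97e-18), and in CEY2 the groups overlapped at 12.8 and 12.2 against 15.1 and 11.8 CPM (−0.11 ± 0.16 SE, adjusted p = 0.529). The CEY2 controls were lower for this gene than those of the other strains. snr-1, which encodes SmD3, stood at 8.68 and 8.45 against 27.5 and 30.2 CPM in CEY1 (−1.75 ± 0.14 SE, adjusted p = 1.54e-14), 9.90 and 9.89 against 36.3 and 29.9 CPM in CEY4 (−1.74 ± 0.12 SE, adjusted p = 2.89e-16) and 14.5 and 16.5 against 19.9 and 17.9 CPM in CEY2 (−0.29 ± 0.14 SE, adjusted p = 0.0604).

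In CEY2, snr-2, snr-3 and snr-4, the genes of SmB, SmD1 and SmD2, were called higher and snr-7 (SmG) lower. On the TMM scale 34.9% of all genes were higher and 34.1% lower. Median-of-ratios scaling gave 1 higher and 3 lower (31.4% and 42.3% of all genes). With total-count scaling all 7 were lower, as were 71.7% of all genes. snr-2 had 0.81 ± 0.10 (SE, adjusted p = 5.02e-09) in CEY2 (−0.92 with total-count scaling), −1.02 ± 0.11 in CEY1 and −0.08 ± 0.09 (SE, adjusted p = 0.433) in CEY4. The values of snr-3 and snr-4 in CEY2, 0.40 ± 0.16 (SE, adjusted p = 0.0261) and 0.33 ± 0.14 (SE, adjusted p = 0.0305), became −1.33 and −1.40 with total-count scaling, and that of snr-4 was −0.0062 with median-of-ratios scaling. Both missed the threshold without CEY2 FLAG replicate 2 (snr-3 0.27, adjusted p = 0.219, snr-4 0.29, adjusted p = 0.116) or CEY2 MYC replicate 2 (snr-3 0.27, adjusted p = 0.242, snr-4 0.10, adjusted p = 0.606). snr-6 (SmE) was lower in CEY4 (−0.86 ± 0.13 SE, adjusted p = 3.78e-07), and its values in CEY1 and CEY2 were −0.27 ± 0.14 (SE, adjusted p = 0.0885) and 0.34 ± 0.16 (SE, adjusted p = 0.054). In CEY1 it passed the threshold as lower without CEY1 MYC replicate 2 (−0.65, adjusted p = 1.31e-05), as did snr-4 (−0.47, adjusted p = 0.00258). In CEY2 snr-6 passed as higher without any 1 of 7 libraries, for example CEY2 MYC replicate 1 (0.55, adjusted p = 0.0245), but it was −1.39 with total-count scaling. snr-7 lay near the limit of detection, at 4 to 72 counts per library, with −2.27 ± 0.45, −1.62 ± 0.51 and −3.49 ± 0.47, and its CEY2 call was lost without CEY2 MYC replicate 1 (−1.37, adjusted p = 0.0724).

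The LSm genes were also mostly lower in CEY1 and CEY4. All 7 were lower in CEY1 and 5 in CEY4 (34.4% and 37% of all genes). In either strain 0 were higher (32.3% and 31.5% of all genes). With total-count scaling 7 of 7 were lower in both (71.4% and 79.7% of all genes). lsm-1, which encodes the LSm protein specific to the cytoplasmic decapping ring, departed most from this in CEY2. It stood at 53.5 and 57.1 CPM in CEY2 FLAG against 17 and 14.1 in CEY2 MYC libraries (1.83 ± 0.12 SE, adjusted p = 8.85e-18, and 0.10, not called, with total-count scaling). In CEY1 its level was 26.2 and 23.6 against 43.3 and 43.7 CPM (−0.80 ± 0.11 SE, adjusted p = 1.06e-08), and in CEY4 27.6 and 29.8 against 45.8 and 41 CPM (−0.60 ± 0.09 SE, adjusted p = 5.02e-07). On the TMM scale its CEY2 FLAG libraries were the highest and its CEY2 controls the lowest of all groups. With total-count scaling these 2 groups overlapped, at 34.1 and 36.5 against 35.8 and 30.1 CPM. The CEY1 and CEY4 controls were then the highest (62.5 to 69.2 CPM) and the CEY1 FLAG libraries the lowest (14.4 and 13.2 CPM).

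lsm-8, the LSm protein specific to the nuclear U6 ring, moved the same way with a smaller range, with 1.03 ± 0.12 in CEY2 (but −0.70 with total-count scaling), −0.75 ± 0.12 in CEY1 and −0.47 ± 0.11 (SE, adjusted p = 0.000196) in CEY4. The last missed the threshold without CEY4 MYC replicate 1 (−0.24, adjusted p = 0.0627). lsm-7 was higher in CEY2 (1.06 ± 0.25 SE, adjusted p = 0.00031, but −0.67 with total-count scaling) and lower in CEY1 (−0.64 ± 0.23 SE, adjusted p = 0.0122), where the call was lost without CEY1 FLAG replicate 1 (−0.54, adjusted p = 0.101) or CEY1 MYC replicate 1 (−0.56, adjusted p = 0.0666). lsm-3, lsm-4 and lsm-5 were called lower in CEY1 and CEY4, from −1.28 ± 0.23 (lsm-3 in CEY1) to −0.54 ± 0.15 (lsm-5 in CEY4), and in CEY2 their values were 0.30 ± 0.28 (SE, adjusted p = 0.334), 0.13 ± 0.16 (SE, adjusted p = 0.481) and 0.08 ± 0.18 (SE, adjusted p = 0.695). In CEY1 the call of lsm-5 was lost without CEY1 MYC replicate 2 (−0.33, adjusted p = 0.234). lsm-6 had 2 to 25 counts per library and was called in CEY1 (−2.69 ± 0.82 SE, adjusted p = 0.00399), and in CEY4 without CEY4 MYC replicate 2 (−1.95, adjusted p = 0.00894).

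**Figure D3:**
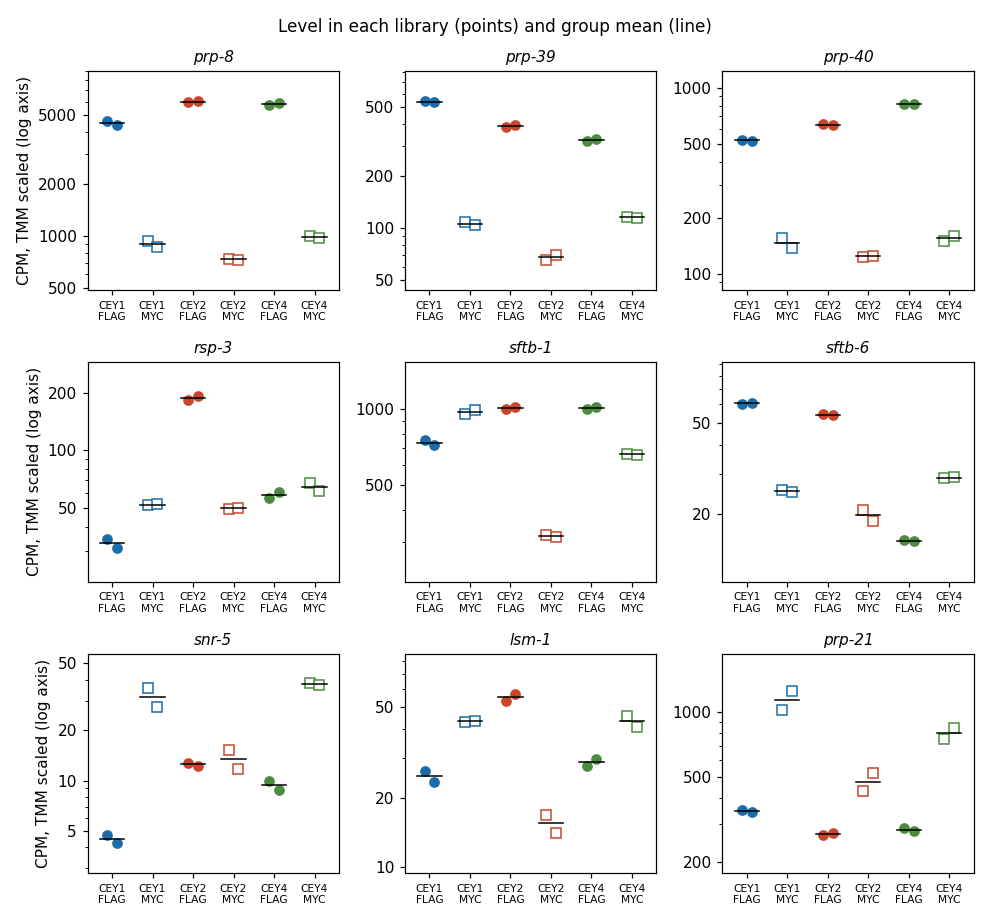
Level of 9 splicing factor genes in each library (points, TMM-scaled CPM, log axis) with the group mean (line), by strain and antibody (x axis). prp-8, prp-39 and prp-40 are above their controls in each strain and prp-21 is below them, whereas rsp-3, sftb-1, sftb-6, snr-5 and lsm-1 differ between strains. Total-count scaling lowers the FLAG points relative to the MYC points, and prp-39 in CEY4 is then no longer called higher.

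The enrichments themselves were compared between strains with an interaction contrast, each strain against its own controls. The enrichment was larger with CEY-2 than with CEY-4 for 39 of 41 genes and smaller for 0 (32.3% and 14.7% of all tested genes were called in these directions). It was smaller with CEY-1 than with CEY-2 for 34 genes and larger for 0 (31.4% and 18.4% of all genes). Between CEY-1 and CEY-4, 11 genes had the larger enrichment with CEY-1 and 11 with CEY-4 (18.1% and 18.6% of all genes). With total-count scaling these counts were 34 and 1, 30 and 2, and 10 and 13. The shares of all genes were then 26% and 21%, 27.2% and 22.7%, and 16.5% and 21.3%. The 3 enrichment comparisons share libraries pairwise. Tagged protein, promoter of the transgene and strain changed together, so their parts in these differences cannot be told apart.

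Between CEY1 and CEY2 the widest differences were those of snr-5 at −2.68 ± 0.22 (adjusted p = 1.16e-13) and lsm-1 at −2.63 ± 0.16 (adjusted p = 5.39e-18). Between CEY2 and CEY4 they were those of lsm-1 at 2.42 ± 0.15 (adjusted p = 2.98e-17) and sftb-6 at 2.36 ± 0.15 (adjusted p = 2.09e-17). Between CEY1 and CEY4, sftb-6 (2.18 ± 0.14 SE, adjusted p = 1.54e-16) and rsp-1 (1.41 ± 0.11 SE, adjusted p = 3.1e-14) were more enriched with CEY-1, and prp-4 (−1.17 ± 0.11 SE, adjusted p = 1.8e-11) and sftb-1 (−1.0 ± 0.07 SE, adjusted p = 3.74e-15) with CEY-4. For sftb-6 and rsp-1 the CEY4 FLAG libraries were the lowest of the FLAG groups, and for prp-4 and sftb-1 the CEY1 FLAG libraries were. Some differences that were not among the widest were lost on leaving out 1 library. Between CEY1 and CEY2 these were snr-6 without CEY1 MYC replicate 1 (−0.21, adjusted p = 0.395) or CEY2 MYC replicate 2 (−0.47, adjusted p = 0.121), snr-4 without CEY1 MYC replicate 1 (−0.36, adjusted p = 0.108) or CEY2 MYC replicate 2 (−0.33, adjusted p = 0.178), and lsm-5 without CEY2 FLAG replicate 1 (−0.59, adjusted p = 0.0781) or CEY1 MYC replicate 2 (−0.44, adjusted p = 0.228). Between CEY1 and CEY4 the calls of rsp-8 and snr-6 were lost in 3 of 12 such fits each, that of uaf-1 in 4 and that of sfa-1 in 8. Between CEY2 and CEY4 those of snr-4 and prp-9 were lost in 3 fits each, and those of lsm-5 and snr-7 in 5 each.

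The controls of CEY2 stood apart from those of the other strains. In MYC libraries 38 of 41 genes were lower in CEY2 than in CEY4 and 0 higher (42.4% and 15.4% of all genes), with a median of −0.75 against −0.40 over all genes. Likewise 30 were higher in CEY1 than in CEY2 and 0 lower (39.7% and 14.8% of all genes). Total-count scaling gave 18 lower and 3 higher for CEY2 against CEY4 (22.4% and 27.6% of all genes). The median was then −0.27, against 0.09 over all genes. For CEY1 against CEY2 it gave 16 higher and 8 lower (22.2% and 27.2% of all genes). The controls of CEY1 and CEY4 differed in 8 genes, 2 higher and 6 lower in CEY1 (6.19% and 8.35% of all genes). The count of 6 changed to 13 without CEY1 MYC replicate 1, to 2 without CEY1 MYC replicate 2, and to 3 without CEY2 FLAG replicate 2 or either CEY4 FLAG library.

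Compared directly, without the controls, the FLAG libraries of CEY2 held 27 genes at a higher level than those of CEY4 and 5 at a lower level (27.6% and 27.3% of all genes). Of the 8 SR genes all 8 were higher in CEY2 FLAG (median 1.11), as were all 3 genes of branch point and 3' splice site recognition (median 0.25). Of the 13 prp genes 6 were higher and 3 lower (median 0.15), and of the 7 Sm genes 5 were higher and 1 lower (median 0.41). Of the 7 LSm genes 4 were higher and 0 lower (median 0.61), and of the 3 SF3b genes 1 was higher and 1 lower, with a median of −0.00033. The largest value was that of rsp-4 at 1.94 ± 0.08 (adjusted p = 2.8e-24), and the lowest that of prp-9 at −1.33 ± 0.06 (adjusted p = 9.72e-22). The FLAG libraries of CEY1 had 27 genes below those of CEY2 and 5 above (31.2% and 29.9% of all genes), from rsp-3 at −2.50 ± 0.08 (adjusted p = 4.39e-28) to prp-9 at 1.68 ± 0.06 (adjusted p = 1.73e-25).

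**Figure D4:**
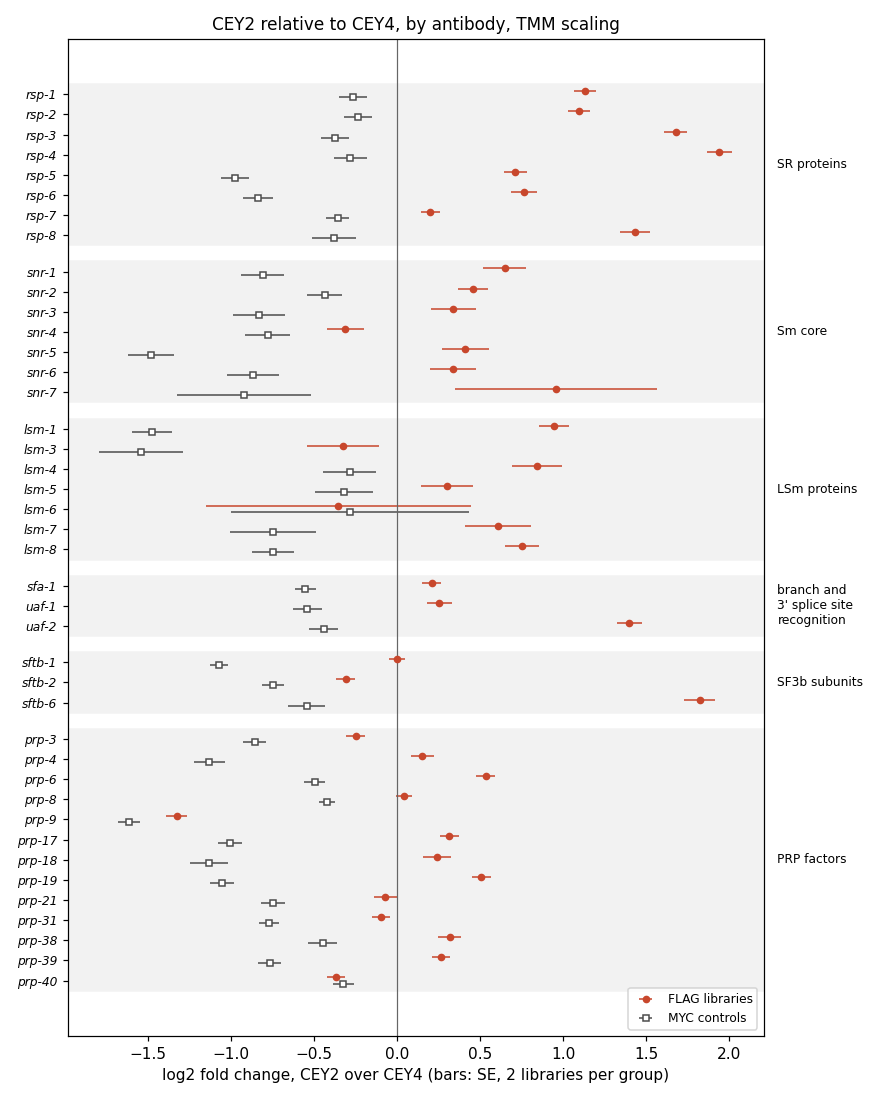
Log2 fold change of CEY2 over CEY4 (x axis, TMM scale, bars are SE) in the FLAG libraries (red) and in the MYC controls (open squares) for each of the 41 splicing factor genes (y axis), with 2 libraries per group. In the FLAG libraries 27 genes are called higher in CEY2 (27.6% of all genes), all 8 SR genes among them. In the controls 38 are called lower (42.4% of all genes), or 18 with total-count scaling (22.4%).

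Across the strains, on the TMM scale, 15 of 41 genes (36.6%) were called higher in all 3, against 20.9% of all tested genes. There 2 (prp-21 and snr-7) were lower in all 3, against 15.4%. With total-count scaling only prp-8 and prp-40 were called higher in all 3. For 13 genes (31.7%, against 14.2% of all genes) the call on the TMM scale was higher in 1 strain and lower in another. These were rsp-3, rsp-5, rsp-6, snr-2, snr-3, lsm-1, lsm-7, lsm-8, uaf-2, sftb-1, sftb-6, prp-4 and prp-6. In all of them the higher call included CEY2, and with total-count scaling the CEY2 value stayed above 0 in rsp-3 and lsm-1. The calls of rsp-5, snr-3, lsm-7, lsm-8, prp-6 and snr-7 rest on single libraries as given above. Adjacent genes did not always have the same values. rsp-1 and rsp-2 are adjacent among the coding genes of the RefSeq table, and the enrichment of CEY1 against CEY2 differed for rsp-2 (−1.41 ± 0.11 SE, adjusted p = 2.75e-14), with a value of 0.01 ± 0.12 (adjusted p = 0.959) for rsp-1. rsp-5 and snr-3 are also adjacent and were called in opposite directions in CEY1 (0.93 ± 0.07 and −1.15 ± 0.16). The spans of 17 of the 41 genes overlap another annotated gene, 9 of them a coding gene such as pie-1 for snr-6. The span of prp-8 overlaps snoRNA genes, and those of prp-40, rsp-2, rsp-4 and prp-4 each overlap a coding gene. How such reads were counted is not given in the sources used here.

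Most other spliceosome genes were higher as well, on the TMM scale. Of 63 such genes, named by hand and outside the 41, 47 were higher and 9 lower in CEY1, 59 and 1 in CEY2, and 54 and 7 in CEY4, with medians of 0.89, 1.84 and 1.19. Of all tested genes 32.3% were higher and 34.4% lower in CEY1, 34.9% and 34.1% in CEY2, and 31.5% and 37% in CEY4. With total-count scaling the counts of the 63 genes were 17 and 38, 28 and 24, and 19 and 35, with medians of −0.60, 0.11 and −0.23. The shares of all genes were then 10.8% and 71.4%, 13.2% and 71.7%, and 9.25% and 79.7%. bud-13, of the RES complex, stood at 708 ± 4.66 CPM (SD, n = 2) in CEY1 FLAG against 71.6 ± 15.3 in CEY1 MYC (3.33 ± 0.08), with 2.48 ± 0.07 in CEY4. The highest values of the list were those of sqd-1, an hnRNP homolog (3.35 ± 0.05), and bud-13 in CEY1, of cacn-1, the homolog of cactin (2.93 ± 0.07), and snrp-200, the U5 helicase (2.91 ± 0.06), in CEY2, and of bud-13 and spk-1, a kinase of SR proteins (2.48 ± 0.06), in CEY4. The values given for these 5 genes were positive with total-count scaling too. Among those called lower at a mean of at least 10 CPM, the lowest were phf-5, a small SF3b protein, in CEY1 (−2.0 ± 0.20) and CEY4 (−1.41 ± 0.17), rnp-3, an RNA-binding protein of the U1 and U2 snRNPs, in CEY1 (−1.73 ± 0.15) and CEY2 (−0.44 ± 0.17), and its relative rnp-2 in CEY4 (−1.23 ± 0.12).

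Of 22 genes of regulated splicing in a separate list, 20 were higher and 2 lower in CEY1, 13 and 4 in CEY2, and 15 and 4 in CEY4. The shares of all genes were 32.3% and 34.4%, 34.9% and 34.1%, and 31.5% and 37%. With total-count scaling the counts were 6 and 10, 4 and 15, and 2 and 15. The shares of all genes were then 10.8% and 71.4%, 13.2% and 71.7%, and 9.25% and 79.7%. asd-1, a Fox-1 family splicing regulator, was the highest in each strain, at 468 ± 0.145 against 36.8 ± 7.85 CPM in CEY1 (3.70 ± 0.08), 2.77 ± 0.09 in CEY2 and 2.24 ± 0.08 in CEY4, positive on both scales. The hnRNP F homolog hrpf-2 had 2.22 ± 0.07 in CEY1 and 2.09 ± 0.07 in CEY2. The muscle splicing regulator sup-12 was lower in each strain (−0.94 ± 0.27, −2.19 ± 0.25 and −1.70 ± 0.26), as were tiar-2 in CEY1 (−1.22 ± 0.10) and CEY4 (−0.51 ± 0.08) and mbl-1, the muscleblind homolog, in CEY2 (−0.99 ± 0.15). In CEY2 tiar-2 was called higher (1.63 ± 0.10), but it was −0.10 with total-count scaling. hrpu-2 had 1.74 ± 0.06 in CEY4.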

How the data were processed

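RNA from FLAG and MYC IPs of 3 strains was sequenced after Trizol extraction from the beads and library preparation with the ScriptSeq v2 kit, per the labels' protocols. The deposited table holds raw counts per gene for 20182 genes. A second deposited table holds log2 values, rebuilt here from the counts (largest deviation 5.01e-05) as counts scaled to 1 common total plus 8. No source used here gives the aligner, genome build, annotation or counter. Symbols were matched by identifier (93.0% had one), and RefSeq (WBcel235) gave gene neighbours.

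Counts were fitted in R 4.3.3 with edgeR 4.0.16 quasi-likelihood F tests (filterByExpr minimum count 10, TMM factors 0.548 to 0.640 in FLAG and 1.51 to 2.13 in MYC libraries, 1 mean for each of the 6 groups). All 15194 genes that passed were tested, and calls are two-sided at a Benjamini-Hochberg adjusted p under 0.05 over all of them. SE comes from the F statistic. The labels name no molecular identifiers, so depth speaks for counting error only: 1 CPM before TMM scaling was 3.35 counts in the smallest library. Replicates differed beyond sampling noise in each group (chi-square per gene 1.53 to 4.29), so all 12 libraries were counted.

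Values per library are given for the 3 called genes with the highest and lowest log2 fold change per strain at a mean of at least 10 CPM, and for the 2 widest called differences in each direction between strains. Others, among them rsp-3, prp-9 and uaf-2, were chosen after their values were seen. The members and lists were chosen with earlier results of these data known. Alternatives were median-of-ratios size factors, total-count scaling, other filters, DESeq2 1.42.0, a replicate block, single strains and leaving out each library. The comparison of FLAG libraries without controls was added after seeing the data.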

Additional observations from a re-analysis of the deposited data

Results flagged for a closer look

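The enrichment of FLAG over MYC differed between strains by the interaction test of edgeR. For CEY1 against CEY2, 34 genes had the smaller enrichment in CEY1 and 0 the larger (31.4% and 18.4% of all genes). For CEY1 against CEY4, 11 were larger and 11 smaller in CEY1 (18.1% and 18.6% of all genes). For CEY2 against CEY4, 39 were larger and 0 smaller in CEY2 (32.3% and 14.7% of all genes). At an unadjusted p under 0.05 the counts of 0 were also 0, and DESeq2 gave 3 and 1 (23.4% and 20.1% of all genes).

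The genes with the widest differences, or with calls in opposite directions in the compared strains, had these differences on the log2 scale. For CEY1 minus CEY2 they were snr-5 −2.68, lsm-1 −2.63, rsp-3 −2.57, rsp-6 −1.58, snr-2 −1.83, snr-3 −1.55, lsm-7 −1.70, lsm-8 −1.78, uaf-2 −1.94, sftb-1 −2.08, prp-4 −2.45, prp-6 −1.62. For CEY1 minus CEY4 they were sftb-6 2.18, rsp-1 1.41, prp-4 −1.17, sftb-1 −1.0, rsp-5 1.14, prp-6 −0.59. For CEY2 minus CEY4 they were lsm-1 2.42, sftb-6 2.36, rsp-5 1.69, rsp-6 1.60, snr-3 1.17, lsm-8 1.5, uaf-2 1.84. Each was called by the test of the difference itself. In MYC controls the level of 38 of the 41 genes was lower in CEY2 than in CEY4 (42.4% of all genes). Each difference in enrichment is the difference between FLAG libraries less that between MYC controls. For CEY2 against CEY4 the medians of the 41 genes were 1.20 for the enrichment, 0.34 in FLAG libraries and −0.75 in MYC controls. For CEY1 against CEY2 they were −1.22, −0.47 and 0.62. Why the controls differed was not tested.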

How the results depend on the processing

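Scaling changed more counts than any other choice tried. With total-count scaling the higher and lower counts of FLAG against MYC were 5 and 35 in CEY1, 11 and 22 in CEY2, and 2 and 34 in CEY4, against 18 and 19, 32 and 2, and 20 and 15. The shares of all genes were then 10.8% and 71.4%, 13.2% and 71.7%, and 9.25% and 79.7%. On the TMM scale they were 32.3% and 34.4%, 34.9% and 34.1%, and 31.5% and 37%. Total-count scaling reversed 53 values of single genes. In CEY1 these became rsp-8 −0.37, sftb-6 −0.22, prp-38 −0.66, rsp-7 −0.23, rsp-4 −0.11, prp-18 −0.95, prp-3 −0.68, prp-19 −0.48, prp-9 −0.91, rsp-5 −0.56, rsp-2 −0.29, prp-31 −0.44, sfa-1 −1.38, uaf-1 −1.27. In CEY2 they became rsp-6 −0.93, prp-4 −0.056, sftb-6 −0.28, snr-4 −1.40, prp-38 −0.05, lsm-5 −1.65, lsm-4 −1.60, prp-18 −0.004, sftb-1 −0.05, prp-9 −1.20, snr-3 −1.33, rsp-5 −0.25, snr-2 −0.92, sfa-1 −0.65, uaf-2 −0.22, snr-6 −1.39, prp-6 −0.27, lsm-3 −1.43, lsm-8 −0.70, uaf-1 −1.02, lsm-7 −0.67. In CEY4 they became rsp-8 −0.76, prp-4 −1.02, prp-38 −0.50, rsp-7 −0.11, rsp-4 −1.10, prp-18 −1.06, prp-17 −0.74, sftb-1 −0.81, prp-19 −0.74, prp-9 −1.17, rsp-2 −0.13, rsp-1 −0.97, sftb-2 −0.056, prp-31 −0.19, sfa-1 −1.10, prp-6 −0.98. Median-of-ratios scaling and DESeq2 each gave 4 lower genes in CEY2 (42.3% and 37.3% of all genes), as did the fit to the 4 libraries of CEY2, and turned snr-4 there to −0.0062 and −0.0040.

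Between strains, 3 genes with median-of-ratios scaling, 3 with DESeq2, 2 with total-count scaling and 5 in FLAG libraries alone were higher in CEY1 than in CEY2, against 0. The shares of all genes were 24.5%, 23.4%, 22.7% and 29.9%, against 18.4%. For CEY2 against CEY4, 1, 1, 1 and 5 were lower, against 0. Here the shares of all genes were 21.3%, 20.1%, 21% and 27.3%, against 14.7%. The enrichment of sftb-2 for CEY1 against CEY2 turned to 0.32, 0.32 and 0.22 with median-of-ratios scaling, DESeq2 and total-count scaling, and that of prp-9 for CEY2 against CEY4 to −0.050, −0.050 and −0.031. In the MYC controls, median-of-ratios scaling, DESeq2 and total-count scaling gave 19, 19 and 16 genes higher (3, 3 and 8 lower) in CEY1 than in CEY2. The shares of all genes were 26.3%, 23.3% and 22.2% (23.9%, 19.9% and 27.2% lower). They gave 22, 22 and 18 lower in CEY2 than in CEY4 (27.9%, 24.8% and 22.4% of all genes), with 3 higher under total-count scaling (27.6%). Total-count scaling gave 3 lower in CEY1 than in CEY4 (6.9% of all genes). The cause was not tested.

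Leaving out each library in turn gave 17 to 19 higher and 17 to 20 lower genes in CEY1, 30 to 33 and 1 to 2 in CEY2, and 20 and 14 to 16 in CEY4. The enrichment differences had 0 and 32 to 34 (CEY1 against CEY2), 8 to 11 and 10 to 12 (CEY1 against CEY4), and 36 to 39 and 0 (CEY2 against CEY4). The controls had 29 to 33 and 0 (CEY1 against CEY2), 2 to 3 and 2 to 13 (CEY1 against CEY4), and 0 and 33 to 38 (CEY2 against CEY4). The single CEY2 lower count of 1 came without CEY2 MYC replicate 1. The replicate numbers are shared across groups but nothing ties same-numbered libraries together, and the deviations of same-numbered FLAG and MYC libraries correlated at −0.07, −0.04 and −0.06 across 6405 genes. With a replicate block 33 genes were higher in CEY2 (32 without) and 12 had the smaller enrichment in CEY1 than in CEY4 (11 without). Without the filter, with the stricter filter of 1 CPM, and with the block, no count moved by more than 1.5 times. The replicates allow no statement on variation between cultures, and genes under about 10 CPM, such as lsm-6 and snr-7, rest on few counts.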
